A study of Mus musculus with 6 samples.

Results

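The respiratory subunits encoded by the mitochondrial genome were followed in articular cartilage of KO and wildtype mice by RNA-seq. The 10 genes mt-Nd1, mt-Nd2, mt-Nd4, mt-Nd5 and mt-Nd6 (complex I), mt-Cytb (complex III), mt-Co1, mt-Co2 and mt-Co3 (complex IV) and mt-Atp6 (ATP synthase) were taken by gene name. They are 10 of the 34709 genes in the table and 10 of the 13 protein-coding genes among 37 genes of the mitochondrial chromosome. The comparison asked whether their transcripts differ between KO mice and wildtype mice. All were male littermates aged 18 months on a C57BL/6J background. Each group had 3 libraries of poly(A)-selected RNA from tissue labelled cartilage, and the labels do not say whether animals were pooled.

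The mitochondrial genome is a small circular DNA carried in many copies per cell. Both of its strands are transcribed into long precursors by a dedicated polymerase with the factors TFAM and TFB2M, and the precursors are cut at the tRNAs that lie between the coding genes. Most of the mRNAs then receive poly(A) tails. The mRNAs are translated on mitochondrial ribosomes, and their products join nuclear-encoded subunits in the respiratory complexes. Of the members, 9 are transcribed from the heavy-strand template and mt-Nd6 alone lies on the opposite strand.

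Some of the members depend on the poly(A) tail even for their reading frame. In the GENCODE M21 transcripts (GRCm38), 3 members end on a bare T, from which a stop codon arises once A is added, whereas the others carry a whole stop codon. The last 24 bases of these 3 and of 2 others are shown, with the stop codon, or the part of it that the genome encodes, in capitals.
mt-Co3: tctccatttattgatgaggatctT
mt-Nd4: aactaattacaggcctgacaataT
mt-Cytb: acaaaatactaaaattatatccaT
mt-Co1: ccaacctatgtaaaagtaaaaTAA
mt-Nd6: attatcgagattactcgagatTAA
The strand is visible in base composition. The 9 heavy-strand members held 8.0 to 16.1% G and 23.8 to 27.7% C, whereas mt-Nd6 held 28.1% G, 6.0% C and 43.7% T. The ends of mt-Nd5 (chrM:11742-13565, plus strand) and mt-Nd6 (chrM:13552-14070, minus strand) overlap by the 14 bases ttaatctcgagtaa (plus strand, chrM:13552-13565). The library kit marks strand, but the strand setting of the counting was not given in the sources used here, so reads in this overlap cannot be assigned with certainty. The rest of the genome is as compact: mt-Atp6 (chrM:7927-8607) shares 43 bases with mt-Atp8, of the same ATP synthase, and 1 base with mt-Co3 (chrM:8607-9390), and mt-Nd4 (chrM:10167-11544) shares 7 bases with mt-Nd4l. The other members are single coding exons at chrM:2751-3707 (mt-Nd1), chrM:3914-4951 (mt-Nd2), chrM:5328-6872 (mt-Co1), chrM:7013-7696 (mt-Co2) and chrM:14145-15288 (mt-Cytb).

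For 5 of the 10 members the nuclear genome holds a near-identical stretch, listed in the table as a pseudogene of its own on chromosome 1. These sequences are shown because they decide how far a level can be credited to the mitochondrial gene. The first 60 bases of mt-Co3 and of its pseudogene Gm28437 (chr1:24613189-24613971, minus strand, GRCm38) are the same letter for letter.
mt-Co3: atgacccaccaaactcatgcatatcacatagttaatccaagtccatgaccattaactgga
Gm28437: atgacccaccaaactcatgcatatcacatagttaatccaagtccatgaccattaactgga
The identity was 100% over 783 of the 784 bases of mt-Co3, and likewise for Gm10925 over 678 of the 681 bases of mt-Atp6 and for Gm28661 over 681 of the 684 bases of mt-Co2. Gm28439 matched the first 876 of the 1378 bases of mt-Nd4 without a difference. Gm29216 matched bases 1063 to 1545 of mt-Co1, 31.26% of the gene, with 1 substitution, A1066T, counted from 1 at the 5′ end of mt-Co1 and shown here in capitals at its place.
mt-Co1: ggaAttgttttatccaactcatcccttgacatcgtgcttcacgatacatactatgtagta
Gm29216: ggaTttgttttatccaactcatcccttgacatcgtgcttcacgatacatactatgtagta
A second match of mt-Co1, Gm13340 on chromosome 2 (chr2:22588103-22589647, minus strand), covers all 1545 bases with 37 substitutions, an identity of 97.605%. Bases 460 to 519 of mt-Co1 hold 4 of them, shown in capitals.
mt-Co1: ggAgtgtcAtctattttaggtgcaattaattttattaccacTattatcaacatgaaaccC
Gm13340: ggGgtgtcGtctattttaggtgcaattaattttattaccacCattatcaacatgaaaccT
No copy of at least 97% identity over 150 bases was found among the annotated pseudogenes for mt-Nd1, mt-Nd2, mt-Nd5, mt-Nd6 and mt-Cytb.

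Before the groups were compared, the libraries were examined. Across genes, log2(FPKM + 1) of KO replicates 2 and 3 correlated with a Pearson's r of 0.994, against 0.959 to 0.980 for the other 14 pairs, and over the members their largest log2 ratio was 0.050, against 0.172 to 0.582. They were therefore counted as 1 sample, which gave 2 KO and 3 wildtype samples. Total counts were 52268311 to 63331135 per library. The tissue label was only partly borne out: of 16 chondrocyte markers all were listed, led by Prg4, the surface-zone lubricant, but Matn1 and Matn3 were at 0 in some library. Their summed FPKM (fragments scaled to transcript length and library size) was 678 to 1500.5 in KO and 670.1 to 893 in wildtype libraries, while 14 neutrophil markers summed to 52614 to 63836 in KO and 27816 to 44732 in wildtype libraries, and 11 erythroid markers to 25011 to 60768 and 71801 to 108679. The neutrophil sums were higher and the erythroid sums lower in every KO library, as were those of 12 B cell markers (95.4 to 148 against 299.6 to 338) and 8 adipocyte markers (23.9 to 56.3 against 77.7 to 215). The sums of macrophage, osteoblast, osteoclast, endothelial and skeletal muscle markers overlapped between the groups. The muscle sum varied most, at 238, 5.99 and 5.07 in KO replicates 1 to 3 and 52.4, 87.9 and 426 in the wildtype libraries, with Myh1, Myh2, Myh7, Myl1 and Mb at 0 in some library. The libraries thus held much RNA of marrow and blood cells in amounts that moved with the groups, and the part of this in any value below was not tested. In such bulk samples fewer cells of a type and less RNA per cell cannot be told apart.

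The members were among the most abundant transcripts of every library. In KO replicates 1 to 3 they together took 2.42%, 2.21% and 2.23% of all counts, and 2.81%, 2.55% and 2.48% in wildtype replicates 1 to 3. Every KO library lay below every wildtype library on this measure, the nearest being KO replicate 1 and wildtype replicate 3. The whole mitochondrial chromosome took 2.70%, 2.39% and 2.41% of counts in KO and 3.05%, 2.81% and 2.71% in wildtype libraries. Wilson 95% intervals, which treat each estimated count as an independent read, reached at most 0.0045 points to either side. They leave out the spread between libraries and do not show that 2 libraries differ. The mean share was 2.55% ± 0.209 (SD, n = 2) in KO and 2.86% ± 0.175 (SD, n = 3) in wildtype samples. As a share of summed FPKM the groups overlapped, at 5.75%, 6.15% and 6.19% in KO and 7.33%, 6.02% and 5.96% in wildtype libraries. For the whole chromosome, the separation of the groups thus depended on the scale. The summed FPKM of the members alone was 17990 to 20140.5 in KO and 20240.4 to 22542 in wildtype libraries. These ranges did not overlap, but KO replicate 1 and wildtype replicate 3 were nearly equal. On FPKM, 13.7% of all genes tested were likewise lower in every KO library. The members made up 89.8 to 92.4% of the mitochondrial counts, and mt-Co1 ranked between the 5th and the 8th place among all genes by counts.

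**Figure D1:**
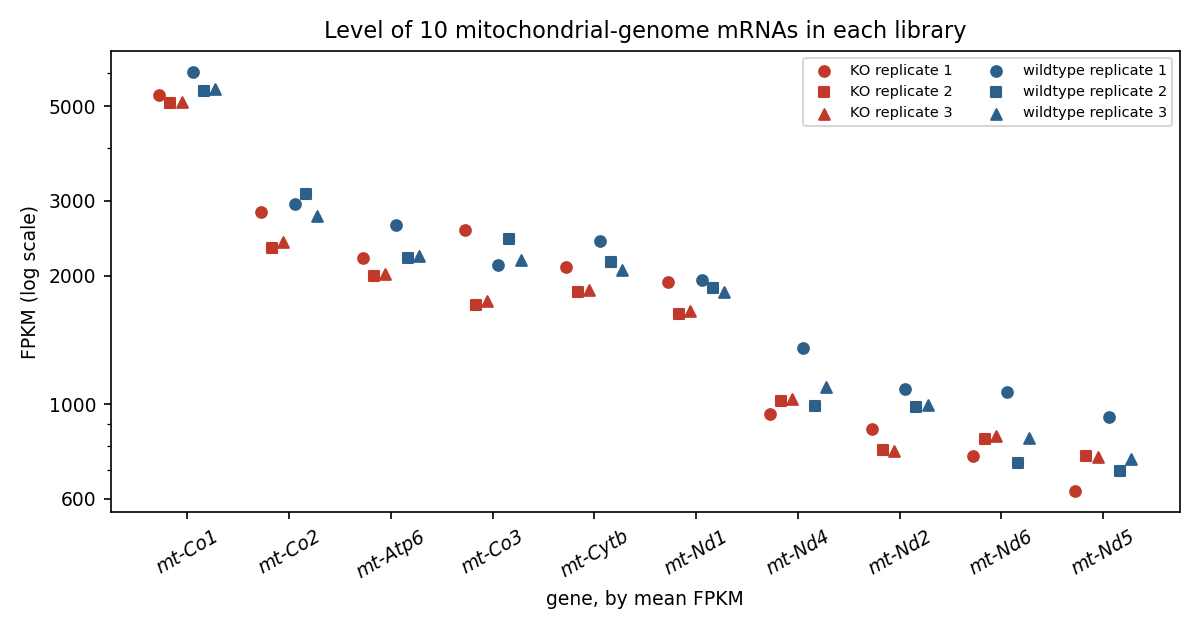
FPKM (log axis) of the 10 mitochondrial-genome genes, ordered by their mean, in KO (red) and wildtype (blue) libraries, with 1 point per library and the replicate shown by the symbol. mt-Co1 stands apart at 5102 to 6026, and KO and wildtype points overlap for 7 of the 10 genes.

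Per length, mt-Co1 was highest and mt-Nd5 lowest in every library, as the plot of FPKM by library shows. Over the 6 libraries the mean FPKM was 5413 ± 341 (SD) for mt-Co1 and 2730.0 ± 307 for mt-Co2, followed by mt-Atp6 (2215 ± 225), mt-Co3 (2126 ± 349), mt-Cytb (2070 ± 213) and mt-Nd1 (1815 ± 142). The lower group held mt-Nd4 (1073 ± 146), mt-Nd2 (916 ± 125.5), mt-Nd6 (843 ± 121) and mt-Nd5 (752 ± 102). The range of mt-Co1 was clear of that of mt-Co2, and that of mt-Nd1 was clear of that of mt-Nd4. Between all other neighbours in this order the ranges over libraries overlapped. Even so, mt-Co2 ranked 2nd, mt-Nd1 ranked 6th and mt-Nd4 ranked 7th in each library, while mt-Co3 moved between places 3 and 5. The complex I members thus took the last 5 places. The levels of the 5 genes with a chromosome 1 copy are uncertain, since reads of the matching stretch cannot be told apart. That stretch is nearly the whole gene for mt-Co2, mt-Co3 and mt-Atp6, but 63.57% of mt-Nd4 and 31.26% of mt-Co1.

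Among the complex I members, mt-Nd2 differed most between the groups. ND2, ND4 and ND5 are the antiporter-like subunits of the proton-pumping arm. In KO replicates 1 to 3 the FPKM of mt-Nd2 was 873, 781 and 778, and in wildtype replicates 1 to 3 it was 1085, 983 and 998 (values are given in this order throughout). All KO libraries lay below all wildtype libraries. The log2 difference, KO minus wildtype, was -0.28 (SE 0.194, 95% interval -0.74 to 0.18), with an adjusted p of 0.614 (edgeR quasi-likelihood test, Benjamini-Hochberg over 15373 genes). mt-Nd2 therefore did not pass the test, and with 2 against 3 samples its exact two-sided permutation p was 0.2, the smallest that this design allows. With the 6 libraries taken as labelled, its log2 difference was -0.33 with an unadjusted edgeR p of 0.054 and an adjusted p of 0.235.

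mt-Nd4 had an FPKM of 948, 1018 and 1028 in KO and 1354, 991 and 1101 in wildtype libraries. Wildtype replicate 1 was highest and the groups overlapped on this scale. After TMM scaling of the counts the order changed, with a CPM (counts scaled to the effective library size) of 1556, 1547 and 1561 in KO and 2046, 1602 and 1704 in wildtype libraries, so that the groups no longer overlapped and mt-Nd4 also reached the smallest exact permutation p of 0.2. mt-Nd5 had an FPKM of 625, 756 and 753 in KO and 934, 699 and 746 in wildtype libraries, again with wildtype replicate 1 above the rest and the others mixed. The log2 differences were -0.20 (95% interval -0.73 to 0.33) for mt-Nd4 and -0.18 (-0.70 to 0.34) for mt-Nd5.

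mt-Nd1 encodes the subunit next to the quinone site of complex I. Its FPKM was 1934, 1626 and 1657 in KO and 1960.0, 1877 and 1838 in wildtype libraries, with KO replicate 1 inside the wildtype range. The log2 difference was -0.06 (95% interval -0.60 to 0.49). mt-Nd6, a small membrane subunit of complex I and the light-strand gene, had an FPKM of 755, 831 and 841 in KO and 1070.1, 727 and 834 in wildtype libraries. Its lowest and its highest value were both from wildtype libraries, and the log2 difference was -0.12 (-0.56 to 0.32).

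mt-Cytb encodes cytochrome b, the heme-bearing quinol-oxidising core of complex III. Its FPKM was 2103, 1839 and 1851 in KO and 2412, 2152 and 2063 in wildtype libraries. KO replicate 1 lay above wildtype replicate 3, so the groups overlapped, and the log2 difference was -0.14 (95% interval -0.73 to 0.46).

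In complex IV, mt-Co1 encodes the catalytic subunit where oxygen is reduced, and its FPKM was 5315, 5102 and 5108 in KO and 6026, 5433 and 5493 in wildtype libraries. The KO libraries were lower throughout on this scale, but not after TMM scaling, where the CPM was 9775, 8693 and 8700.3 in KO and 10213, 9845 and 9531 in wildtype libraries. The log2 difference was -0.09 (SE 0.356, 95% interval -0.93 to 0.74), the widest interval of the 10. The log2 CPM of mt-Co1 varied little, with an SD of 0.119 in KO (n = 2) and 0.050 in wildtype samples (n = 3). The fit draws each gene's variance toward a value shared across genes, so this width is not the spread of mt-Co1 alone. mt-Co2, whose copper centre takes electrons from cytochrome c, had an FPKM of 2825, 2325 and 2408 in KO and 2955, 3109 and 2758 in wildtype libraries, with a log2 difference of -0.16 (-0.73 to 0.42). mt-Co3, a core subunit without a redox centre, had an FPKM of 2561, 1710.5 and 1746 in KO and 2118, 2440.1 and 2178 in wildtype libraries. The KO samples of mt-Co3 thus enclosed the wildtype range, and the log2 difference was -0.04 (-0.70 to 0.62).

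mt-Atp6 encodes the subunit of the ATP synthase through which protons enter and leave. Its FPKM was 2201, 2002 and 2024 in KO and 2628, 2202 and 2231 in wildtype libraries. KO replicate 1 and wildtype replicate 2 were nearly equal, with the KO libraries just below, and after TMM scaling the groups overlapped. The log2 difference was -0.14 (95% interval -0.65 to 0.38).

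Over all 10 members the log2 differences ran from -0.28 to -0.04 with a median of -0.14, against a median of -0.02 over all genes tested, and 10 of 10 were below 0, against 52.5% of all genes. The members are cut from shared precursors and were measured in the same libraries, so their common sign is not 10 separate observations. None passed the test: edgeR's adjusted p was 0.614 to 0.982 and the unadjusted p 0.189 to 0.894. Of all genes tested, 0% passed at an adjusted p under 0.05 and 13.7% at an unadjusted p under 0.05. With 6 libraries as labelled, 3.71% of genes passed at an adjusted p under 0.05, and again 0 members did. DESeq2 passed 5.72% of genes (16.1% at an unadjusted p under 0.05) and 0 members by either measure. The KO libraries lay below all wildtype libraries for 3 members on FPKM (mt-Nd2, mt-Co1 and mt-Atp6), against 13.7% of all genes, and for 2 members on TMM-scaled counts (mt-Nd2 and mt-Nd4), against 13% of all genes. The 95% intervals together allowed differences between -0.93 and 0.74 on the log2 scale, with both ends from mt-Co1. Those of the other members ran from -0.74 (mt-Nd2) to 0.62 (mt-Co3). Moderate differences in either direction were thus not detectable with these samples.

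**Figure D2:**
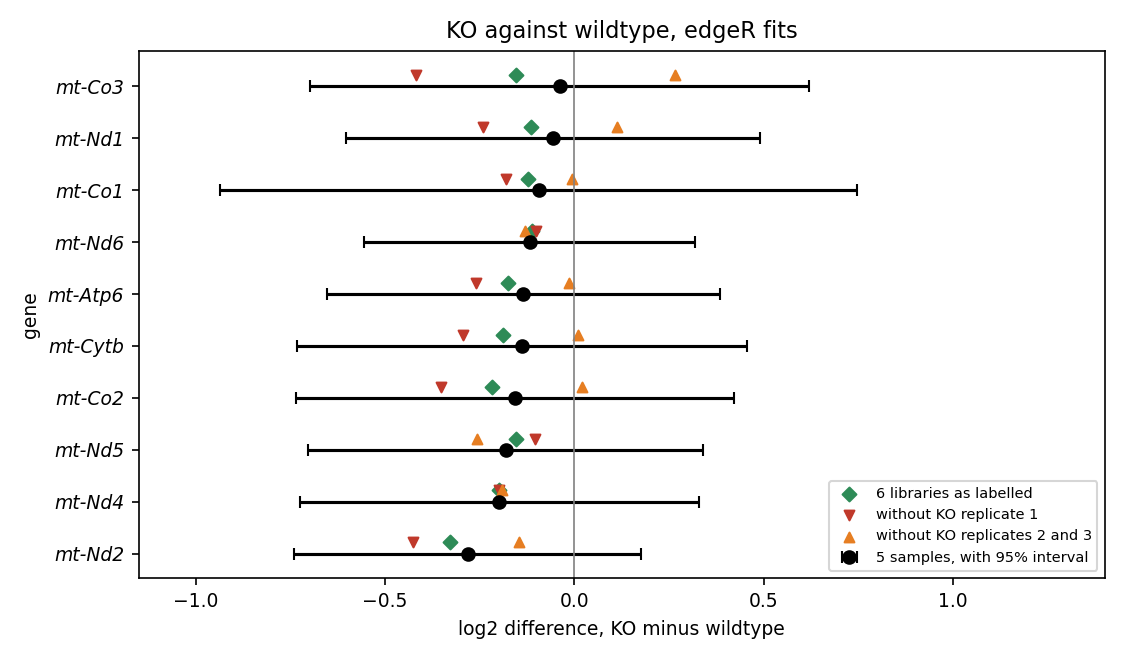
Log2 difference, KO minus wildtype, of each of the 10 genes, with black points and bars for the fit of 5 samples and its 95% interval, and coloured points for fits of other sets of libraries (no intervals drawn). All 10 black points lie below 0 with intervals that cross it, and without KO replicates 2 and 3 the values of mt-Co3, mt-Nd1, mt-Co2 and mt-Cytb are above 0.

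The size of these differences depended on the KO sample used, as the plot of log2 differences shows. Without KO replicate 1 the median over the members was -0.25. Without KO replicates 2 and 3 it was -0.01, and mt-Co3 was then 0.27 on the log2 scale, mt-Nd1 0.11, mt-Co2 0.02 and mt-Cytb 0.01. mt-Nd2, mt-Nd4, mt-Nd5, mt-Co1 and mt-Atp6 stayed below 0 under each of the 19 alternative fits.

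The other genes of the mitochondrial chromosome were examined next, with those named here chosen after their values were seen apart from mt-Atp8. The remaining protein genes mt-Atp8, mt-Nd3 and mt-Nd4l had log2 differences of -0.19, -0.16 and -0.19, so that all 13 were below 0. The rRNA genes had 0.17 for mt-Rnr1 and -0.03 for mt-Rnr2. For mt-Rnr1 the sign depended on KO replicate 1, whose FPKM was 678 against 346 and 360.3 in KO replicates 2 and 3, and with 6 libraries as labelled the value was -0.0075. Of 22 tRNA genes 11 were below and 11 above 0. None of these 27 genes passed the test, with adjusted edgeR p-values between 0.559 and 0.992. The rRNAs of mitochondria carry short tails, if any, and the tRNAs are shorter than the fragments sequenced, and poly(A) selection is not designed for either.

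Ratios between members within a library are free of the scaling between libraries. The steadiest pair was mt-Atp6 and mt-Cytb, whose FPKM ratio differed by at most 1.07-fold between libraries, followed by mt-Cytb and mt-Co1, with a ratio of 0.396, 0.36 and 0.362 in KO and 0.400, 0.396 and 0.376 in wildtype libraries. The least steady pair was mt-Nd5 and mt-Co3. Their ratio was 0.244, 0.442 and 0.431 in KO and 0.441, 0.286 and 0.343 in wildtype libraries, a 1.81-fold span with low and high values in both groups. mt-Nd6, alone on its strand, had a ratio to mt-Nd5, the gene facing it, of 1.21, 1.10 and 1.12 in KO libraries. In wildtype libraries this ratio was 1.15, 1.04 and 1.12, and its span over all libraries was 1.16-fold. The ratio of mt-Nd6 to mt-Nd4, which does not face it, had a smaller span of 1.12-fold. Against the median of the 9 heavy-strand members mt-Nd6 was at 0.359, 0.486 and 0.482 in KO and 0.505, 0.338 and 0.404 in wildtype libraries, so the groups overlapped. How well poly(A) selection captured mt-Nd6 beside the heavy-strand members was not tested, so its level relative to theirs is uncertain.

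**Figure D3:**
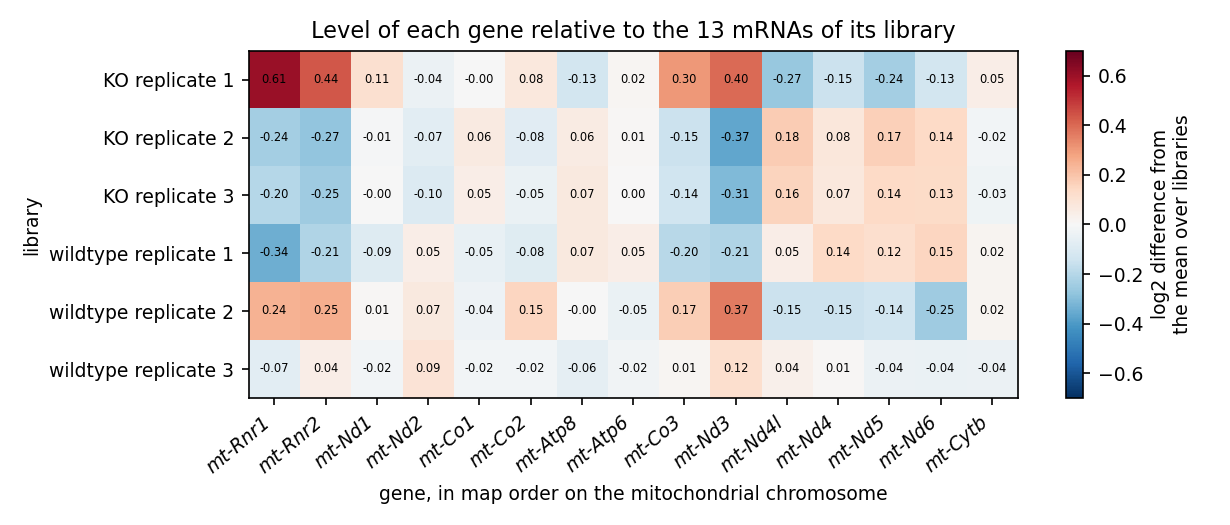
Level of each rRNA and mRNA gene of the mitochondrial chromosome relative to the 13 mRNAs of the same library, as the log2 difference from the mean over the 6 libraries, with genes in map order on the x axis and libraries on the y axis. KO replicate 1 and wildtype replicate 2 share high values at the rRNA genes, mt-Co3 and mt-Nd3 and low values from mt-Nd4l to mt-Nd6, and KO replicates 2 and 3 and wildtype replicate 1 show the opposite.

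Along the map, the libraries differed in a pattern that crossed the groups. KO replicate 1 and wildtype replicate 2 were high for mt-Rnr1 (0.61 and 0.24 on the log2 scale, relative to the mean over libraries), mt-Co3 (0.30 and 0.17) and mt-Nd3 (0.40 and 0.37) and low for mt-Nd5 (-0.24 and -0.14) and mt-Nd6 (-0.13 and -0.25). KO replicate 2 had -0.24, -0.15 and -0.37 for the former genes and 0.17 and 0.14 for the latter, and wildtype replicate 1 had -0.34, -0.20 and -0.21, then 0.12 and 0.15. Wildtype replicate 3 lay between, with no value beyond 0.12 in either direction. The share of mitochondrial counts on the 2 rRNA genes followed the same order, at 6.92% in KO replicate 1, 5.97% in wildtype replicate 2, 5.11% in wildtype replicate 3 and 4.19 to 4.32% in the other libraries. So did the share of all counts on the 10 most abundant genes, at 15.3%, 14.1% and 13.3% in these 3 libraries and 8.46 to 11.3% in the others, and the summed FPKM of the chondrocyte markers, at 1500.5, 893 and 796 and 670.1 to 688. The total count ran the other way, at 52268311, 52698599 and 56555726 in these 3 libraries and 57817677 to 63331135 in the others. The part of these measures in the pattern was not tested. Of 20 ratios computed, without a test, 3 did not overlap between the groups, and each was higher in KO. The ratio of mt-Rnr1 to mt-Rnr2 was 1.05, 0.959 and 0.968 in KO and 0.853, 0.930 and 0.862 in wildtype libraries. That of mt-Co3 to Gm28437 was 1.009 to 1.010 in KO and 1.005 to 1.008 in wildtype libraries. For mt-Nd3 and its nuclear copy Gm28438 the ratio was 1.035 to 1.070 in KO and 1.025 to 1.033 in wildtype libraries. No share over other pairs of genes was computed, so this count is not read as a difference between the groups.

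The nuclear copies carried levels that mirrored the mitochondrial genes. Gm28437 had an FPKM of 2537, 1694 and 1731 in KO and 2107, 2426 and 2161 in wildtype libraries, 99.02 to 99.46% of mt-Co3 in the same library. The level of Gm28661 was 98.5 to 99.1% of that of mt-Co2, and that of Gm10925 was 104 to 105% of that of mt-Atp6. The partial copies were lower, with Gm28439 at 55.9 to 63.9% of mt-Nd4 and Gm29216 at 31.3 to 37.8% of mt-Co1. By contrast, Gm13340, whose 37 substitutions separate it from mt-Co1, had an FPKM of 4.29 to 5.67, or 0.079 to 0.105% of mt-Co1. Reads of an identical stretch cannot be assigned to either place, and whether the authors' counting gave them to one, shared them or counted them at both was not given in the sources used here.

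**Figure D4:**
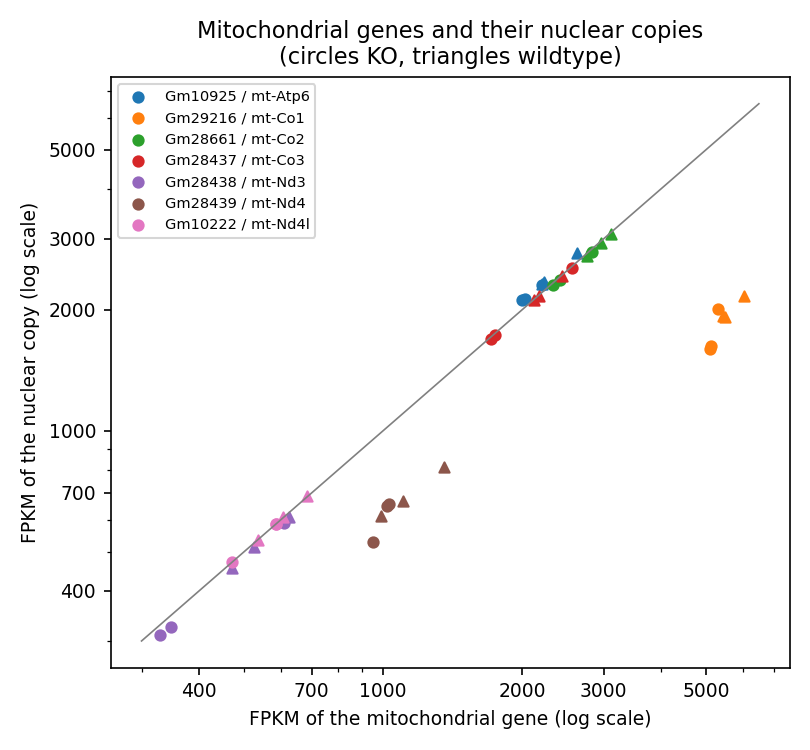
FPKM of 7 nuclear copies of at least 99% identity (y axis, log) against that of the mitochondrial gene each matches (x axis, log), with 1 circle per KO and 1 triangle per wildtype library and the line of equal values in grey. Full-length copies lie on or close to the line in each library, and Gm28439 and Gm29216, which match part of mt-Nd4 and mt-Co1, lie below it.

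The copies took 0.66 to 0.81% of all counts in KO and 0.79 to 0.87% in wildtype libraries, as against 2.21 to 2.81% for the members. Adding the counts of each copy to its gene moved no member's log2 difference by more than 0.0064. This follows from the steady ratio of full-length copies to their genes, and 5 members have no such copy, so it is no test of how reads were assigned. No other assignment of reads was tried. The 7 copies had log2 differences of -0.22 to -0.04, and 0 passed the test, with a lowest adjusted edgeR p of 0.65.

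The members were then set beside the nuclear-encoded subunits of the same complexes, from lists of known subunits. In complex I the median FPKM of the 5 members was 873, 831 and 841 in KO and 1085, 983 and 998 in wildtype libraries, and that of 37 nuclear subunits was 25.6, 23.4 and 24.7 in KO and 26.7, 27.7 and 26.1 in wildtype libraries. Both medians were lower in every KO library. The ratio of the medians was 34.1, 35.5 and 34.1 in KO and 40.7, 35.5 and 38.2 in wildtype libraries, with the highest KO value just above the lowest wildtype value, so the groups overlapped.

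**Figure D5:**
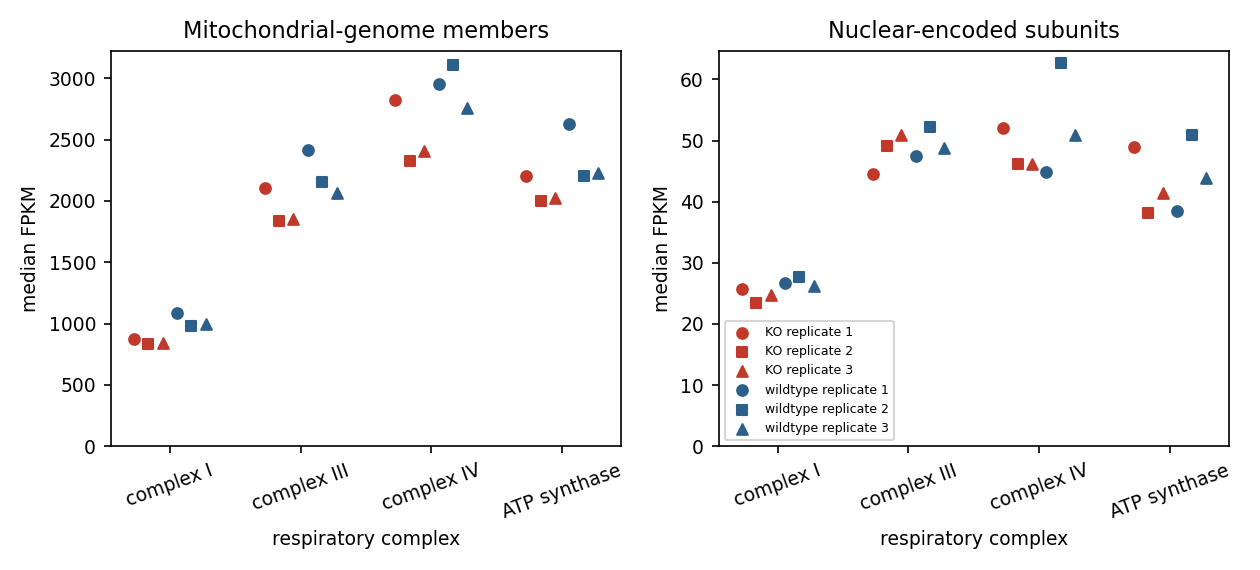
Median FPKM of the mitochondrial-genome members (left) and of the nuclear-encoded subunits (right) of each respiratory complex, with 1 point per library, KO in red and wildtype in blue, on linear axes from 0. Complex I medians are lower in the 3 KO libraries in both panels. The ATP synthase member, mt-Atp6, is also lower in each, but only just (highest KO value 2201, lowest wildtype value 2202). The member medians of complexes III and IV and the nuclear medians of the other complexes overlap.

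In complex III the level of mt-Cytb was 36.3 to 47.1 times the median of 9 nuclear subunits in KO and 41.3 to 50.9 times in wildtype libraries. In complex IV the median of the members was 50.4 to 54.3 times that of 16 nuclear subunits in KO and 49.6 to 65.9 times in wildtype libraries, and mt-Atp6 was at 45 to 52.6 and 43.3 to 68.5 times the median of 18 nuclear ATP synthase subunits. In each of these the groups overlapped, and wildtype replicate 1 was highest. Of the 80 nuclear subunits, 55 had a log2 difference below 0 (68.8%, against 52.5% of all genes), with a median of -0.06, and 0 passed the test. At an unadjusted p under 0.05 there were 2, or 2.5% of the list against 13.7% of all genes, namely Ndufv3 of complex I (0.35, SE 0.144, adjusted edgeR p of 0.348) and Cox6b2, a testis-type isoform of complex IV (-0.58, SE 0.223, adjusted edgeR p of 0.313). Values for other nuclear subunits were -0.19 for Ndufb2 of complex I, 0.17 for Uqcrc1 and -0.16 for Cyc1 of complex III, -0.16 for Cox6a1 of complex IV and -0.40 for Atp5k of the ATP synthase.

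The nuclear genes that maintain and express the mitochondrial genome were listed by role, and 86 of 87 were abundant enough to test. None passed the test, 45 were below 0, and the median log2 difference was -0.02. Of 18 genes for replication and maintenance 8 were below 0, and Tfam, which packages the genome and starts its transcription, had an FPKM of 6.82, 6.54 and 6.33 in KO and 9.08, 7.97 and 7.84 in wildtype libraries. The KO libraries were lower throughout, but the log2 difference of -0.30 (SE 0.138) had an adjusted edgeR p of 0.406. Next in that list by unadjusted p were Rrm2b at -0.32 (SE 0.150), Lig3 at 0.39 (SE 0.196) and Polg at 0.18 (SE 0.115). Of 17 transcription genes 8 were below 0. After Tfam, Mterf2, of the transcription termination factor family, was at -0.41 (SE 0.264) and Esrra at 0.22 (SE 0.153).

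Of 30 genes for RNA processing and stability 20 were below 0, with a median of -0.04. Mrm1, which methylates the large mitochondrial rRNA, had an FPKM of 8.37, 6.20 and 6.26 in KO and 12.1, 10.7 and 13.2 in wildtype libraries. It was lower in every KO library and had the smallest p of all these lists, with a log2 difference of -0.69 (SE 0.193) and an adjusted edgeR p of 0.203. It was the only one of the 166 listed genes tested to pass with DESeq2, at -0.68 with an adjusted p of 0.035. DESeq2 passed 5.72% of all genes, so this single pass does not set the lists apart. Slirp, which with LRPPRC protects mitochondrial mRNAs from decay, was at -0.36 (SE 0.172), with an adjusted edgeR p of 0.435. Of 22 genes for translation and insertion of the subunits 10 were below 0. By unadjusted p the first were C1qbp at -0.29 (SE 0.138), Mtrf1 at 0.41 (SE 0.227), Letm2 at -0.33 (SE 0.202) and Oxa1l at 0.16 (SE 0.125). Oxa1l inserts the new subunits into the inner membrane.

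Finally, the genes outside the mitochondrial chromosome whose log2 level ran most like the mean of the members were sought over the 5 samples among 7574 genes whose mean FPKM was 5 or more. The highest Pearson's r were those of Nptn (0.997), Lck (0.997), Timp1 (0.996), Col3a1 (0.996) and Neurl3 (0.995), and 49 genes were above 0.95. Nptn, a cell adhesion molecule, had an FPKM of 26.1, 25.2 and 24.5 in KO and 30.8, 26.8 and 27.3 in wildtype libraries. Its highest value was in wildtype replicate 1. The lowest r were those of Pno1, Igkv4-62 and Creld2 (each -0.999). With 5 samples that share their libraries and their scaling, and so many genes searched, such values only describe these libraries.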

How the data were processed

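RNA-seq libraries of KO (n = 3) and wildtype (n = 3) mouse cartilage were grouped by their labels. The identity of the knocked-out gene is left out. The authors deposited 1 table with FPKM, scaled within each library, and whole-number estimated counts of 34709 genes, in which low values pile up at 4 (6596 values, against 4170 at 3 and 2332 at 5), so a count was not taken as 1 read pair. The submitters' processing notes name cutadapt 1.9, HISAT2 2.0.4, UMI-tools, StringTie 1.3.4d, DESeq2 and edgeR. Gene positions follow GRCm38. Of the per-sample columns, 0 were left unused. Total counts were 52268311 to 63331135. Intervals on shares treat each estimated count as an independent read, so they are not a measure of counting error. They also leave out the spread between libraries.

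KO replicates 2 and 3 were averaged to 1 sample, since they differed far less than other pairs. Counts were tested with edgeR 4.0.16 (R 4.3.3; quasi-likelihood, TMM) for 15373 genes whose mean FPKM was 0.5 or more, and adjusted by Benjamini-Hochberg over all of them at 0.05. Standard errors are the log2 difference over the root of F. P-values measure the spread between these samples. The procedure was tested on simulated data, in which the changed genes differed by more than any member here. That test does not bear on differences as small as those of the members. Nuclear copies were found by blastn 2.17.0 of GENCODE M21 pseudogene transcripts against the mitochondrial genes (at least 97% identity over 150 bases, and 99% for adding counts).

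The members and gene lists were chosen with earlier results of these data known. The text names all members, up to 5 other mitochondrial genes or copies by mean FPKM, up to 5 genes per list by unadjusted p, and the 5 most and 3 least similar genes. Other mitochondrial genes and copies were named after their values were seen. The alternatives were limma 3.58.1 on log2(FPKM + 1) or log2(FPKM + 0.1), DESeq2 1.42.0, other scalings and filters, 6 libraries as labelled, a replicate block and each library left out. The replicate numbers did not pair the samples, with correlations of deviations of -0.14, -0.11 and -0.06 for numbers 1, 2 and 3.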

Additional observations from a re-analysis of the deposited data

How the results depend on the processing

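Over 19 alternative fits, 184 of 190 log2 differences of the members were below 0, and 0 members passed the test in any, with an adjusted p of 0.235 to 0.998. Above 0 were mt-Nd1 (0.11), mt-Co2 (0.021), mt-Co3 (0.27) and mt-Cytb (0.011) without KO replicates 2 and 3, mt-Nd6 (0.024) without wildtype replicate 1 and mt-Co3 (0.054) without wildtype replicate 2. With a library left out, mt-Co3 was as low as -0.42 and mt-Nd6 as low as -0.21. The median over the members ranged from -0.25 (without KO replicate 1) to -0.010 (without KO replicates 2 and 3; -0.081 without wildtype replicate 1), and it moved by less than the spread between samples (SD 0.109) in 17 of 19. The difference in the mitochondrial share of counts, KO minus wildtype, kept its sign, at -0.31 points and -0.46 to -0.16 under the other count-based settings. On the other scale, the share of summed FPKM, it was -0.48 points and the groups overlapped. Of all genes tested, 0 were called, against 880 with DESeq2, 21 without a filter on low values, 570 with 6 libraries as labelled, and 0 to 352 with libraries left out (352 without KO replicate 1, 9 without KO replicates 2 and 3, 1 without wildtype replicate 2 and 1 without wildtype replicate 3). DESeq2 called 1 gene of the pathway lists, Mrm1. The cause of these differences was not tested. With a replicate block on the 6 libraries, 0 genes were called (2809 at an unadjusted p under 0.05) and the median over the members was -0.18. The replicate numbers only name the samples. Where 1 KO sample remained, it was assumed to vary like the wildtype samples. Adding the copies to the members (median -0.14) and limma with a constant prior variance (median -0.16) were chosen after seeing the data. Each member had at least 22789 counts in every library.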
